A study of Mus musculus with 4 samples.

Results

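The adult alpha and beta globin genes were measured as RNA in heart tissue of sham-operated mice. The members were chosen by place, as every locus with a UCSC transcript model that overlaps the alpha globin cluster on chromosome 11 or the adult beta globin cluster on chromosome 7 of mm9 and averages at least 10 normalised counts. The rule names 4 genes, Hba-a1, Hba-a2, Hbb-b1 and Hbb-b2, and they fell into 2 of the 35299 loci in the table, an alpha locus and a beta locus, because the copies of each chain were joined into 1 counted locus. A further locus inside the alpha window had a mean of 6.18 and so stayed below the minimum.

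All 4 samples form the Sham group: C57BL/6J mice of 12 weeks, whose hearts were sampled 2 weeks after surgery, at the site that borders the infarct in animals with an infarct. The description of replicate 4 leaves out the word sham, while its title, source and treatment carry it. The libraries are headed 3RL, 7LR, 8R and 12RL and could not be tied to replicate numbers. There is no second group, so the hearts were compared only with each other, and the spread between them may be partly technical. The labels do not say whether blood was flushed from the hearts.

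Haemoglobin carries oxygen in red blood cells and is built from alpha and beta globin chains, each with a haem group. Red cell precursors make globin mRNA in bulk, and reticulocytes, the young red cells without a nucleus, still carry it in the circulation. Globin mRNA in a solid tissue is therefore often read as a trace of blood. Blood content itself was not measured here, and in bulk tissue fewer red cells and less globin RNA per red cell cannot be told apart.

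The copies of each chain are nearly identical, which the sequences show. RefSeq (GRCm38.p6) lists Hbb-bs and Hbb-bt as the adult beta globin genes beside each other on chromosome 7, and the sequences of these genes are used for the beta locus. The second exon, which is all coding, was identical between Hba-a1 and Hba-a2 over 205 bases and between Hbb-bs and Hbb-bt over 223 bases. It is given once for each pair from the GENCODE M21 transcripts, since a single read inside it fits both copies alike.
second exon of Hba-a1 and Hba-a2: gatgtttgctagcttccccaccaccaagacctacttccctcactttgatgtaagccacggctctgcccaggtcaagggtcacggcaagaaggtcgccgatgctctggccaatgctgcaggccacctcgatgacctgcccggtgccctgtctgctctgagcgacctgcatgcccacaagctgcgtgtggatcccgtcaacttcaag
second exon of Hbb-bs and Hbb-bt: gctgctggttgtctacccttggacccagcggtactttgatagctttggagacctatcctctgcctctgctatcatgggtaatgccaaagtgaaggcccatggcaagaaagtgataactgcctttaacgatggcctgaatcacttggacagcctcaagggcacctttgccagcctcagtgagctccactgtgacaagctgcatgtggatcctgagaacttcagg

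Over the coding sequence without its stop codon, each pair of copies differed at 1 base, at position 381 of 426 in the alpha genes and at position 417 of 441 in the beta genes, counted from 1 at the A of the start codon. It is base 3 of its codon in both pairs. The 41 bases around it follow, with the differing base in capitals.
Hba-a1: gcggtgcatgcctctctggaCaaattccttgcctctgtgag
Hba-a2: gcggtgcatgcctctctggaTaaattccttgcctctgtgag
Hbb-bs: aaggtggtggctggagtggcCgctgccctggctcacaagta
Hbb-bt: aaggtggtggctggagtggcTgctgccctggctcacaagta
The libraries were read in pairs of 100 bases. Of the 327 stretches of that length in the coding sequence of Hba-a1, 85.9% also occurred in Hba-a2. Of the 342 in Hbb-bs, 92.7% also occurred in Hbb-bt. These shares are for single stretches of coding sequence, and neither the untranslated ends nor the mate of a read was considered. How reads that match both copies were counted is not stated in the labels, so the level of either locus is uncertain and may be too low.

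The alpha locus lies on the plus strand at chr11:32183672-32197310 (mm9) and holds 3 transcript models. The UCSC models of its copies have 566 spliced bases in 3 exons each and lie 11995 bases apart. The only assembled model joins them. It runs to the end of exon 2 in the upstream copy and goes on at base 13 of exon 2 in the downstream copy, across an intron of 12624 bases.

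The beta locus lies on the minus strand at chr7:110961036-110976756 (mm9) and holds 5 models. Its UCSC models have 627 spliced bases in the upstream copy and 630 in the downstream copy, with 12610 bases between them. All 3 assembled models join the copies. The first leaves the upstream copy at base 69 of exon 3 and enters the downstream copy at base 70 of exon 3, the next position of the like exon. Another leaves 11 bases of the upstream exon 1 unused and takes up the last 11 bases of the downstream exon 1. The remaining model joins the end of the upstream exon 1 to base 82 of the downstream exon 1. Whether these models stand for RNA molecules or for reads placed across near-identical copies was not tested.

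**Figure D1:**
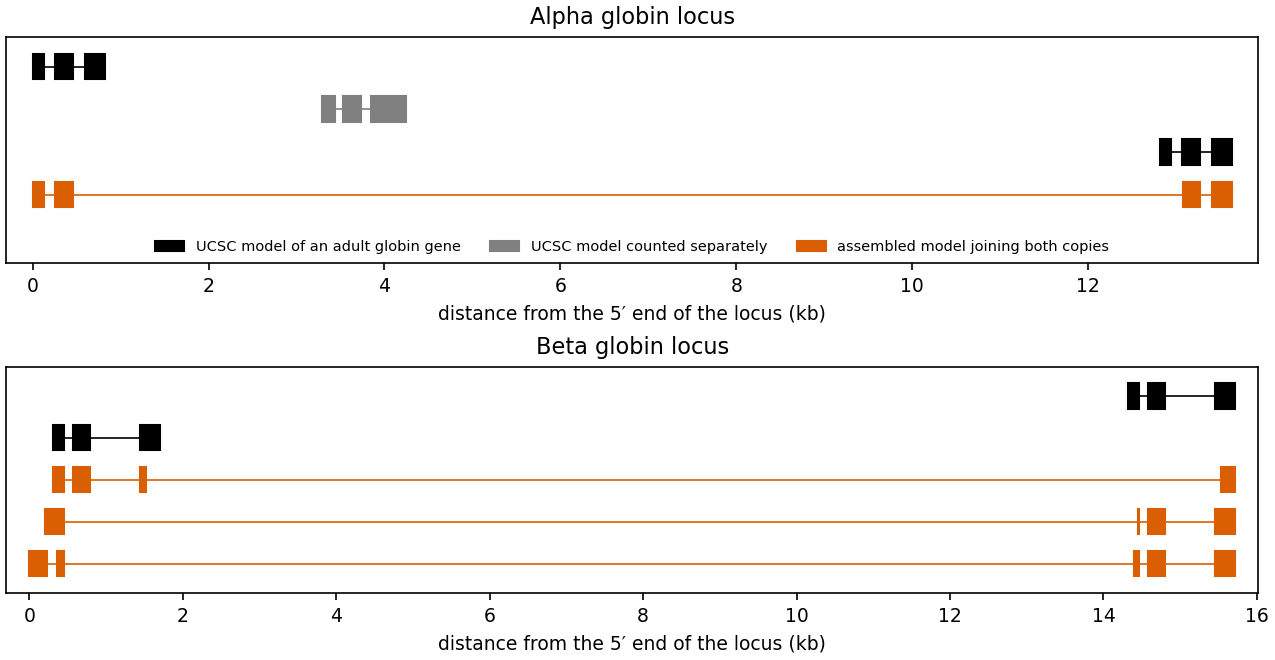
Transcript models at the alpha globin locus (top) and the beta globin locus (bottom), with the distance from the 5′ end of the locus in kb on the x axis; boxes are exons, lines are introns, and the grey model was counted as a locus of its own. The assembled models (orange), 1 at the alpha and 3 at the beta locus, all span both copies.

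Both globin loci were well expressed, and 8R held the most globin RNA and 3RL the least. For the alpha locus, 3RL had 25307 normalised counts (reads divided by a size factor for each library), 7LR had 38496, 8R had 83406 and 12RL had 37397. For the beta locus, 3RL had 31209, 7LR had 48324, 8R had 80039.6 and 12RL had 45795. In both, 7LR and 12RL lay close together between the extremes. The alpha locus averaged 46152 ± 25545 and the beta locus 51342 ± 20565 (SD, n = 4).

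By mean normalised count the beta locus was number 321 and the alpha locus number 352 of all loci. Globin mRNAs are short, and per kb of the longest spliced UCSC model the alpha locus averaged 81540.0 ± 45132 and the beta locus 81495 ± 32643 normalised counts (SD, n = 4). They were then numbers 77 and 78 of 18748 loci with a UCSC model. Each globin locus pools the reads of both copies, whereas its longest UCSC model covers a single copy. The exons of both copies cover 1132 bases at the alpha locus and 1257 at the beta locus. The levels per kb are therefore higher than that full length would give, and ranks by full length were not made. Their mean levels per kb differed by far less than the spread between hearts. Together they took 0.0563% ± 0.0237 of all counts (SD, n = 4), from 0.0337% in 3RL to 0.0895% in 8R.

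**Figure D2:**
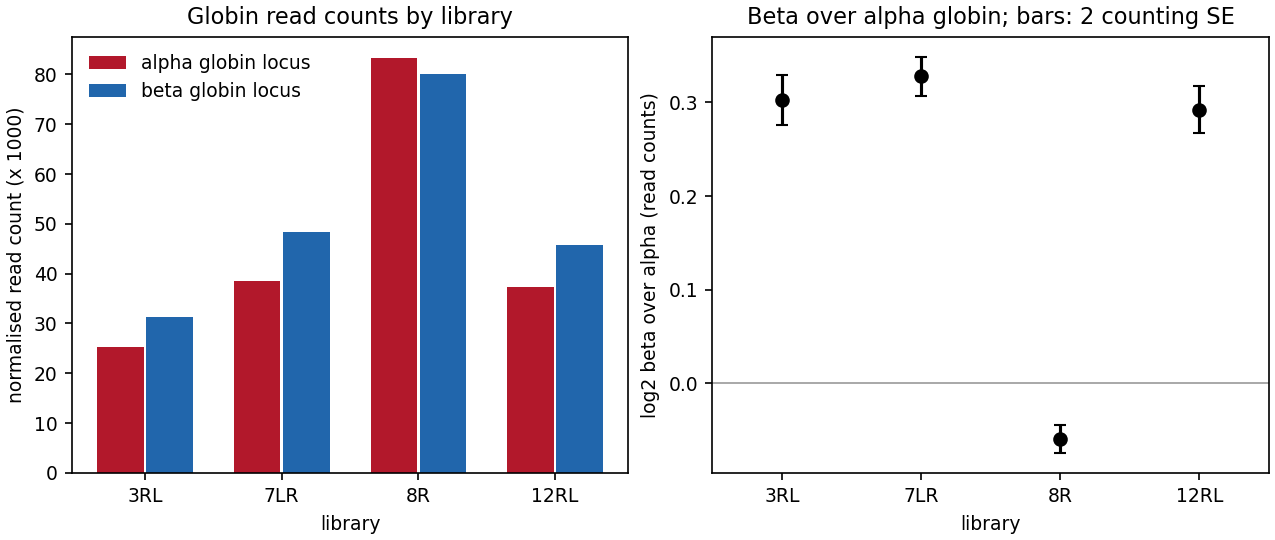
Left, normalised read counts (y axis, from 0) of the alpha (red) and beta (blue) globin loci in each library. Right, log2 of beta over alpha read counts with bars of 2 counting standard errors; 3RL, 7LR and 12RL lie between 0.29 and 0.33 and 8R lies at -0.059.

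The globin loci differed between the hearts more than most loci did. Their sum was 56516 normalised counts in 3RL, against 86821 for 7LR, 163445 for 8R and 83192 for 12RL. The highest library was 2.89 times the lowest for the sum, 3.30 times for the alpha locus and 2.56 times for the beta locus. A ratio as large as that of the sum was found in 1.85% of the 14422 other loci averaging 50 or more normalised counts. The coefficient of variation (CV) was 55.3% for alpha, 40.1% for beta and 47.2% for their sum, against a median of 10.6% over those loci.

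A CV at or above that of the alpha locus was found in 0.894% of the 14422 loci, at or above that of the beta locus in 2.86% and at or above that of the sum in 1.64%. For the sum the share was 0.474% among 633 loci with a mean within 2-fold of the globin loci and 1.25% among 883 loci with a UCSC model of up to 1 kb. Each globin locus had at least 21201 reads in every library. The spread rested on 8R to a large part. Without 8R the CV of the sum was 21.9%, the ratio 1.54 and the share of loci at or above that CV 13.9%. Without 3RL they were 40.8%, 1.96 and 2.70%, and without 12RL the share was 1.07%.

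**Figure D3:**
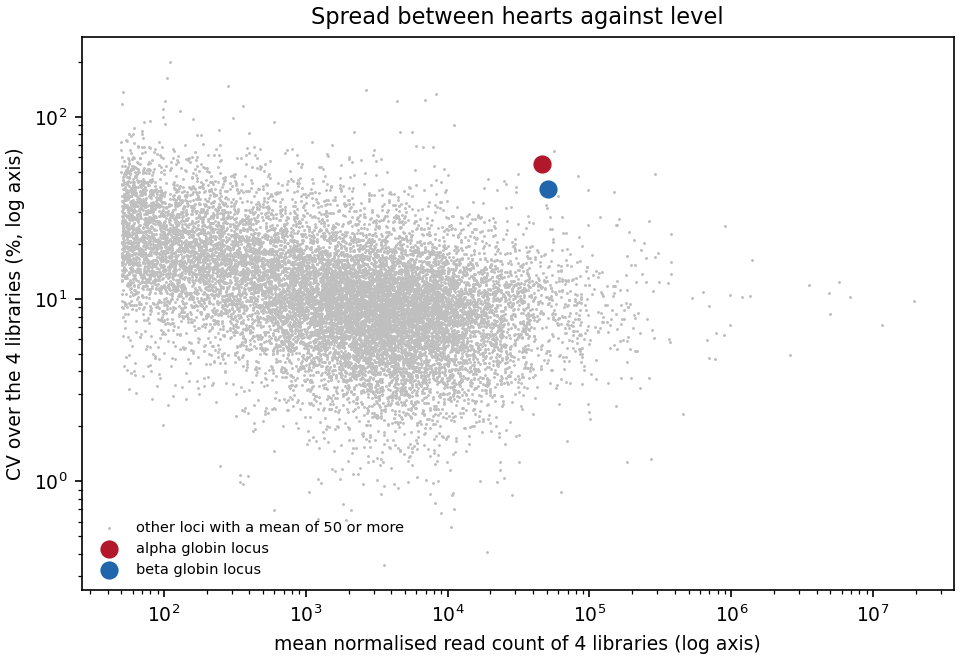
CV over the 4 libraries (%, log axis) against the mean normalised read count (log axis) for each other locus with a mean of 50 or more (grey) and for the alpha (red) and beta (blue) globin loci. The globin loci lie at 55.3% and 40.1%, above most loci of their level.

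Short transcripts as a class were also higher in 8R. Over the 883 loci of up to 1 kb the median log2 deviation from the mean of the 4 libraries was 0.19 in 8R and 0.04 in 3RL. The alpha locus deviated by 1.00 in 8R and -0.72 in 3RL. The beta locus deviated by 0.72 in 8R and -0.64 in 3RL. With the trend with spliced length removed, the alpha locus stood at 0.78 in 8R and -0.75 in 3RL and the beta locus at 0.51 and -0.67, and the sum varied 2.54-fold.

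8R was the highest library for 38.6% of the 14422 loci, and 8.14% had 8R highest and 3RL lowest. The full order of the globin sum, from 8R through 7LR and 12RL to 3RL, was found in 4.45%.

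The alpha and beta loci lie on different chromosomes and followed each other closely. Their log2 deviations differed by at most 0.28, in 8R. Of the 14422 other loci, 13 (0.0901%) came as close to the alpha locus as beta did, and 41 (0.284%) came as close to the beta locus as alpha did. Such closeness needs a spread near that of the globin loci, which few loci had, so both shares partly restate that spread. These values describe 4 libraries, in which all loci share depth and RNA preparation.

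The ratio of beta to alpha counts was alike in every library but 8R. Beta over alpha was 1.23 in 3RL, 1.26 in 7LR and 1.22 in 12RL by normalised counts, and 0.960 in 8R. On the log2(value + 1) scale the difference of beta minus alpha averaged 0.22 ± 0.18 (SD, n = 4) and was above 0 in 3 of 4 libraries (p = 0.25 by an exact sign-flip test, two-sided). With 4 libraries the smallest p is 2 of 16 sign patterns, so no such difference could pass 0.05. Per kb the difference averaged 0.06 ± 0.18 (p = 0.625 in the same exact test). Of the read-length coding stretches, 85.9% in Hba-a1 and 92.7% in Hbb-bs fit both copies. How such reads were counted is not stated, so the size and sign of the ratio cannot be read as the balance of the chains.

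The counting standard error of the log2 ratio was at most 0.0133 in any library, which covers counting only and not the variation between animals or library preparations. The running median of deviations at the spliced lengths of both loci was 0.22 in 8R for either. Of the 14422 loci, 4.6% had a library that stood apart from the other 3 by Dixon's ratio on normalised counts. Neither globin locus was among such loci, at 0.773 for alpha and 0.649 for beta. The log2 ratio of the chains did pass the critical value of that test for 4 samples, at 0.908. The share of such flags among log2 ratios of other pairs of loci was not computed.

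The promoters of the globin genes are shown to compare the copies, whose coding sequences are nearly identical. The 250 bases before the RefSeq start (GRCm38.p6) were searched on both strands for letters known from erythroid promoters, and matches are in capitals. The CCAAT box and the TATAA box are elements of many promoters. The letters CACCC are bound by KLF1 and the letters GATAA by GATA1, which are transcription factors of the red cell lineage.
Hba-a1, chr11:32283422-32283671, plus strand: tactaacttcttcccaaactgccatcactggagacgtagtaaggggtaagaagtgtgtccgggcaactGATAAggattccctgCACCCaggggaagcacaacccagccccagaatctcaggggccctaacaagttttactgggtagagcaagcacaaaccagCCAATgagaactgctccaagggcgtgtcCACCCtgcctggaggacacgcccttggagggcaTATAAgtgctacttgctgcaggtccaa
Hbb-bs, chr7:103827929-103828178, minus strand: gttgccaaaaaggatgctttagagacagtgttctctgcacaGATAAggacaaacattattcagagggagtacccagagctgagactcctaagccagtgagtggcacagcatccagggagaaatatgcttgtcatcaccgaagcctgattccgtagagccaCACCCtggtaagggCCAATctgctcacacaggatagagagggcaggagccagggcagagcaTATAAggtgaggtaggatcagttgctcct
Hbb-bt, chr7:103813924-103814173, minus strand: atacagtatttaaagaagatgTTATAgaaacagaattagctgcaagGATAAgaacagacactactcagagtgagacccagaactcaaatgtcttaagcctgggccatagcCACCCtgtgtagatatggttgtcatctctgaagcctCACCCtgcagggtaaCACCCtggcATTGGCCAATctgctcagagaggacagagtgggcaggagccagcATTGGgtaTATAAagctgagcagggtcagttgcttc
The Hba-a2 promoter had the same letters as that of Hba-a1 at 247 of 247 positions, at a shift of 3 bases. Aligned without gaps at the best shift, Hbb-bs and Hbb-bt had the same base at 51.0% of 249 positions. Their coding sequences differ at 1 base. An inserted or lost base puts all positions beyond it out of step, so the 51.0% may understate how alike these promoters are.

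Each of the 4 promoters held every motif at least once, and Hbb-bt held CCAAT and CACCC 3 times each, with overlapping matches counted. Of 32851 promoters of this length, 33.8% held CCAAT, 52.0% held CACCC, 22.8% held TATAA, 22.6% held GATAA and 0.968% held all of them. A match of letters is no measure of binding in these hearts.

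The loci around the globin genes did not share their level. Within 50 kb of the windows lay 10 other loci, of which 6 had 0 reads in all 4 libraries. All 5 on the beta side were among these. The locus at chr7:110990152-110991676 spans 1525 bases and that at chr7:111000268-111001721 spans 1454 bases. RefSeq (GRCm38.p6) gives these lengths for Hbb-bh1 and Hbb-y, embryonic beta-like globin genes that neighbour the adult ones there. It gives 1525 bases also for Gm3765 on the same chromosome, so length alone does not name the former locus. The beta locus, with 168029 reads over the 4 libraries, was at least 56010-fold higher than a locus at 0, taking 3 reads over the group as the floor. The alpha locus, with 152090 reads, was at least 50697-fold higher. These folds cover counting error only and are not divided by length.

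On the alpha side, the locus at chr11:32186964-32187912, which lies between the alpha copies, gave 20 reads over the 4 libraries, and that at chr11:32200069-32200873 gave 19. Their spans of 949 and 805 bases are those of Hbq1b and Hbq1a in RefSeq, theta globin genes that neighbour Hba-a1 and Hba-a2. The locus at chr11:32176602-32178113 was at 0. Those at chr11:32119456-32167658 and chr11:32247811-32328183 had 2734 ± 116 and 1148 ± 186 normalised counts (SD, n = 4). Their CVs were 4.26% and 16.2% in the same order, beside 55.3% at the alpha locus. The loci with 20 and 19 reads had CVs of 47.7% and 65.9%, to which counting error adds at so few reads. Both were highest in 8R, at 9 reads each, with the former lowest in 7LR and the latter in 3RL.

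A few other loci had nearly the globin pattern over the libraries. Likeness was the largest difference in log2 deviation in any library. It was taken over 13247 loci with a UCSC model, a mean of 50 or more and a place outside the globin regions. Of these, 16 were as close to the globin sum as alpha is to beta, which is 0.28. The alpha and beta loci themselves lay closer to their sum, at 0.14 and 0.13, so that bound is a wide one. The table gives no symbols for the loci compared, so they are named by position on mm9. The nearest, chr4:140988818-140992020, differed by at most 0.077, with 34.6 normalised counts in 3RL and 93.2 in 8R. Its mean was 57.6, little above the minimum of 50, so counting error alone makes its place as the nearest uncertain.

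The next, chr5:137537378-137548129, differed by 0.094: 3RL had 3580 normalised counts, 7LR had 5770.3, 8R had 9538 and 12RL had 5086. It was followed by chr13:34703085-34744891 at 0.14, with 967 in 3RL and 2308 in 8R. The locus at chr16:15887379-15889638 differed by 0.16. With 4 libraries the ranking is loose: none of the 5 nearest loci stayed among the 5 nearest without 3RL or without 8R, 1 stayed without 12RL and 2 stayed without 7LR. Under each of 4 other scalings 4 of them stayed.

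**Figure D4:**
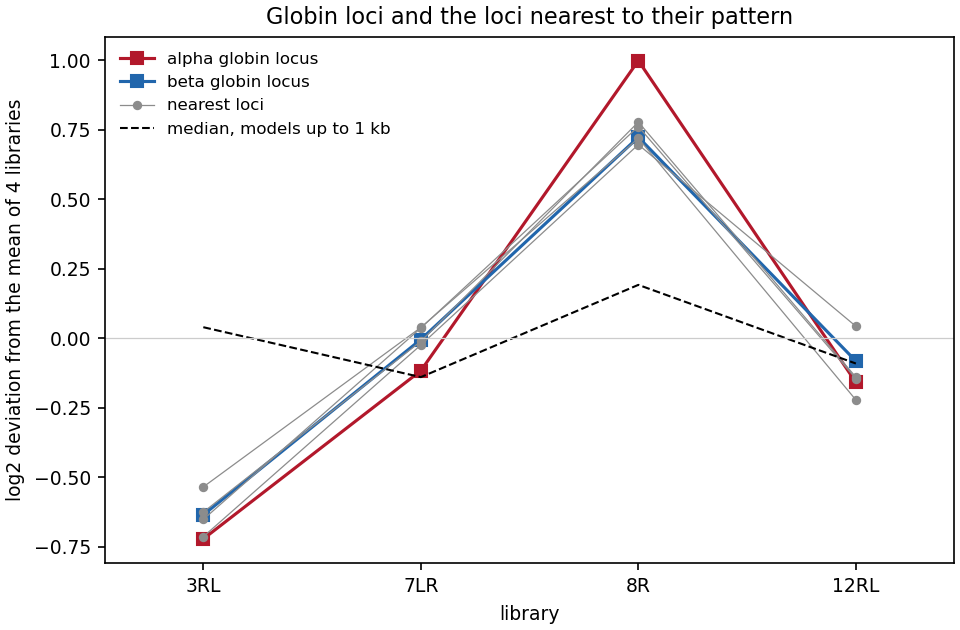
Log2 deviation from the mean of the 4 libraries (y axis) by library for the alpha (red) and beta (blue) globin loci, the 4 named loci nearest to their summed pattern (grey) and the median of loci with models of up to 1 kb (dashed); lines join values of 1 locus and show no order of libraries. In 8R the alpha locus lies at 1.00 and the beta locus at 0.72, where the median of short models is 0.19.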

How the data were processed

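RNA from 4 Sham hearts was selected for poly(A) and sequenced, per the labels' protocols. The deposited table holds a signal for each locus and library, which the authors made by dividing read counts by the library's size factor; the deposited transcript models give exons on mm9. The submitters' processing notes name DESeq without a version, HTSeq 0.5.4p2, Cufflinks 2.0.2 and TopHat2 2.0.5. Strand and counting mode are not stated there. All values (100%) were whole multiples of 1 step within 0.001, so reads were recovered, from 108345923 in 12RL to 160670654 in 8R. Mitochondrial loci took 29.2% to 32.3% of counts. Floors are 3 reads and cover counting error only.

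The members and lists were chosen with earlier results of these data known. Deviations and ratios used log2(value + 1), which understates differences of low loci. CV and shares used untransformed values, and the trend with length was a running median of 501 loci. Loci named are the members, all loci within 50 kb of the windows, and the 5 nearest to the globin pattern, of which 1 is not reported here. The table carries no gene symbols and no annotation of mm9 was used, so the marker lists for red cells, white cells, platelets, endothelium and heart muscle were not applied: the tissue label was not checked on markers, and other cell types were not measured here.

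Python 3.11.15, numpy 2.4.6, pandas 2.3.3, scipy 1.17.1, matplotlib 3.10.9 and edgeR 4.0.16 in R 4.3.3 (TMM factors and dispersions) were used. The ranking by CV, the Dixon ratio, the search for like loci and the recovery of reads were tried on simulated data. The other steps were not. Alternatives were other scalings, minimum means, measures of spread, pseudocounts and lengths, and leaving out each library.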

Additional observations from a re-analysis of the deposited data

Results flagged for a closer look

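The log2 ratio of beta over alpha globin was -0.059 in 8R, against 0.29 to 0.33 in 3RL, 7LR and 12RL. It is listed because 1 library lay far from the other 3, with a gap of 0.908 of the whole range. Chance flags about 1 in 20 groups in this way. The ratio is taken within a library, so the size factor cancels. The cause was not tested.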

How the results depend on the processing

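Under TMM, median of ratios, equal totals and equal totals without mitochondrial loci the highest library of the globin sum was 2.66 to 2.85 times the lowest, with 8R highest and 3RL lowest for either locus. The same scalings of the single loci were chosen after seeing the data and gave 3.03 to 3.25 for alpha and 2.36 to 2.53 for beta. The share of loci with a CV at or above that of the sum, 1.64%, was 7.03% at a minimum mean of 10, 0.748% at 200, 28.7% with no minimum, 3.40% by edgeR's tagwise dispersion and 2.55% with the trend with length removed. Leaving out 1 library gave 1.07% to 13.9% for it, a CV of 21.9% to 55.1%, a ratio of 1.54 to 2.89, and 0 to 2 of the 5 nearest loci. The share of counts was 0.0816% without mitochondrial loci and 0.188% per length of the longest UCSC model, where the total itself changes. For the globin loci that model covers a single copy, while the reads come from both. The mean log2 ratio of beta over alpha stayed above 0 in the alternatives run, from 0.06 per length (SD 0.18) to 0.31 without 8R. In 8R itself the ratio was below 0, at -0.059 by counts and -0.21 per kb. For the other changes the cause was not tested. The ratio of the alpha copies and that of the beta copies were not run, because each pair is 1 locus. No pairing of samples between groups was possible because all samples form 1 group.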
